A study of Homo sapiens with 8 samples.

Results

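The neutrophil-attracting CXC chemokines are here the 6 genes CXCL1, CXCL2, CXCL3, CXCL5, CXCL6 and CXCL8, taken by symbol from the 27696 genes of the count table. Each symbol matched a single row. The genes were followed as CPM (the read count of a gene, scaled to a common library size) from D0 to D10 within each experiment. IMR90 cells, a line of human fetal lung fibroblasts, spent 3 days in conditioned medium of IMR90 ER:RAS donor fibroblasts, and RNA of the recipient cells was sequenced. The donor cells carry an inducible RAS oncogene and enter senescence once 4-hydroxytamoxifen (4-OHT) is added. Medium was taken at day 0, 4, 7 or 10 of 4-OHT, which gave the groups D0, D4, D7 and D10. There were 2 independent experiments, so each group held 2 libraries, replicate 1 from experiment 1 and replicate 2 from experiment 2. All 4 groups received conditioned medium of ER:RAS cells, with D0 as the reference, and all recipient cells were labelled as IMR90, a single strain, with no transgene named. The transcripts measured here are those of the harvested recipient cells, whereas the protein of the same name could also arrive with the medium and was not measured. Carry-over of donor RNA with the medium was not measured either.

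CXC chemokines are small secreted proteins with a single residue between the first pair of conserved cysteines. The 6 described here carry the Glu-Leu-Arg motif ahead of these cysteines, bind CXCR2 (CXCL6 and CXCL8 also CXCR1) and draw neutrophils into inflamed tissue. CXCL8 encodes interleukin-8. Fibroblasts transcribe these genes when interleukin-1 or TNF activates NF-κB, and they are classical components of the late, inflammatory senescence-associated secretory phenotype (SASP), through which senescent cells can act on neighbours.

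The genes lie together on chromosome 4, within 358.8 kb (GRCh38, GENCODE 29, chr4:73740506-74099293). All are protein-coding. In order of position they are CXCL8 (chr4:73740506-73743716), CXCL6 (chr4:73836497-73849064) and CXCL1 (chr4:73869393-73871242) on the plus strand, then CXCL5 (chr4:73995642-73998779), CXCL3 (chr4:74036589-74038807) and CXCL2 (chr4:74097035-74099293) on the minus strand. No exon of theirs overlapped an annotated exon of the opposite strand. On the same strand, CXCL6 shared 94 exon bases (4.31%) with the pseudogene PPBPP1. An NF-κB site close to the start of transcription is a textbook feature of this family, so 60 bases of each promoter are shown, from 110 to 51 bases before the RefSeq start, with the letters GGAATTTCC in capitals where they occur.

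CXCL8, chr4:73740459-73740518, plus strand: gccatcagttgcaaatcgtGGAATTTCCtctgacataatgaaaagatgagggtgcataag
CXCL6, chr4:73836568-73836627, plus strand: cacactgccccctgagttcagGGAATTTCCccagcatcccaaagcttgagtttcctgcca
CXCL1, chr4:73869283-73869342, plus strand: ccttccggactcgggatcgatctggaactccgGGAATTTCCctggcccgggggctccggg
CXCL5, chr4:73998728-73998787, minus strand: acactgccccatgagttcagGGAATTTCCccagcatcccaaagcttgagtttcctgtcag
CXCL3, chr4:74038740-74038799, minus strand: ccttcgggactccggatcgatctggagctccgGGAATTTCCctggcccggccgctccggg
CXCL2, chr4:74099246-74099305, minus strand: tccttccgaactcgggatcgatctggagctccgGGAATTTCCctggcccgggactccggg

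The sequences are RefSeq's (GRCh38.p14), printed 5′ to 3′ on the strand of the gene. RefSeq and GENCODE starts differ. The windows of CXCL6 and CXCL3 lie wholly inside the GENCODE spans given above, and those of CXCL8, CXCL5 and CXCL2 partly. All 6 members had a promoter there, and all 6 held GGAATTTCC in the gene's own direction. Searched on both strands over the 250 bases before the start, the same letters occurred in 145 of 35116 promoters (0.413%). The longer form GGGAATTTCC, which is the same letters with the base that precedes them in CXCL1, was found in 5 members and not in CXCL8, and in 50 promoters in all (0.142%). TGACTCA, an AP-1 motif, was found only in CXCL8 among the members, upstream of the bases shown, and in 1476 promoters (4.2%). Around GGAATTTCC, with 20 bases on each side compared without gaps, CXCL5 and CXCL6 shared 39 of 40 bases and CXCL1 and CXCL3 shared 36 of 40. CXCL2 shared 32 of 40 with CXCL1. CXCL8 shared at most 13 of 40 with any other member. Thus the promoters fell into a CXCL1, CXCL2 and CXCL3 group, a CXCL5 and CXCL6 pair, and CXCL8. A match of letters is a description of the sequence and not evidence of a bound site.

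Taken as a sum, the 6 transcripts were low until D7 and far higher at D10. In experiment 1 their counts summed to 18, 17, 67 and 2863 on D0, D4, D7 and D10. In experiment 2 the sums were 60, 82, 126 and 41146. At D10 they made up 0.0215% of all counted reads in experiment 1 and 0.351% in experiment 2. CXCL8 contributed between 63.3% and 92.8% of the 6 genes' counts in every library. Not every member was high at D10, since CXCL2 and CXCL6 stood at 0.95 and 0.396 CPM in the D10 library of experiment 1. In bulk RNA, more cells expressing a gene and more RNA per cell cannot be told apart.

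CXCL8 had 12, 12, 56 and 2383 counts in experiment 1 (D0, D4, D7 and D10 in turn, an order kept throughout) and 38, 65, 102 and 38184 counts in experiment 2. Scaled to library size this was 1.01, 0.931, 4.28 and 189 CPM in experiment 1. In experiment 2 it was 2.77, 4.85, 7.75 and 3012 CPM. Both D10 libraries lay far above the other 6, and both D7 libraries lay above both D0 libraries. Ranked by CPM per kilobase of exon among 27588 genes, CXCL8 moved from places 12596 and 10587 at D0 to place 478 in experiment 1 and place 12 in experiment 2 at D10.

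CXCL1, first described as a melanoma growth-stimulating factor, had 3, 0, 9 and 365 counts in experiment 1 and 2, 4, 10 and 1145 counts in experiment 2. In CPM it stood at 0.251 and 0.146 at D0 and at 28.9 and 90.3 at D10. The D10 libraries differed less from each other than they did for CXCL8, and both D7 libraries exceeded both D0 and both D4 libraries.

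CXCL3, a close paralog of CXCL1, had 2, 0, 0 and 45 counts in experiment 1 and 4, 2, 3 and 673 counts in experiment 2. CXCL5, the neutrophil chemokine also called ENA-78, had 1, 2, 1 and 53 counts in experiment 1 and 0, 3, 1 and 942 counts in experiment 2. For both genes the D10 libraries stood above all others, at 3.56 and 53.1 CPM for CXCL3 and at 4.20 and 74.3 CPM for CXCL5, and no step was visible before D10. These low counts have a bearing on the tests, since CXCL3 and CXCL5, and CXCL1 as well, entered the set of tested genes through their D10 libraries. The filter needed 2 libraries at its threshold, and before D10 CXCL1 had 1 and CXCL3 and CXCL5 had 0.

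CXCL2, the other close paralog of CXCL1, had 0, 3, 0 and 12 counts in experiment 1 and 16, 8, 10 and 172 counts in experiment 2. The groups overlapped, because 0.95 CPM in the D10 library of experiment 1 was below 1.16 CPM in the D0 library of experiment 2. Within each experiment the D10 library was the highest. CXCL6, which stands next to CXCL1, was listed with 0 counts in 5 of the 6 libraries before D10 and with 1 count in the sixth, and with 5 and 30 counts at D10. It did not pass the filter on low counts.

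**Figure D1:**
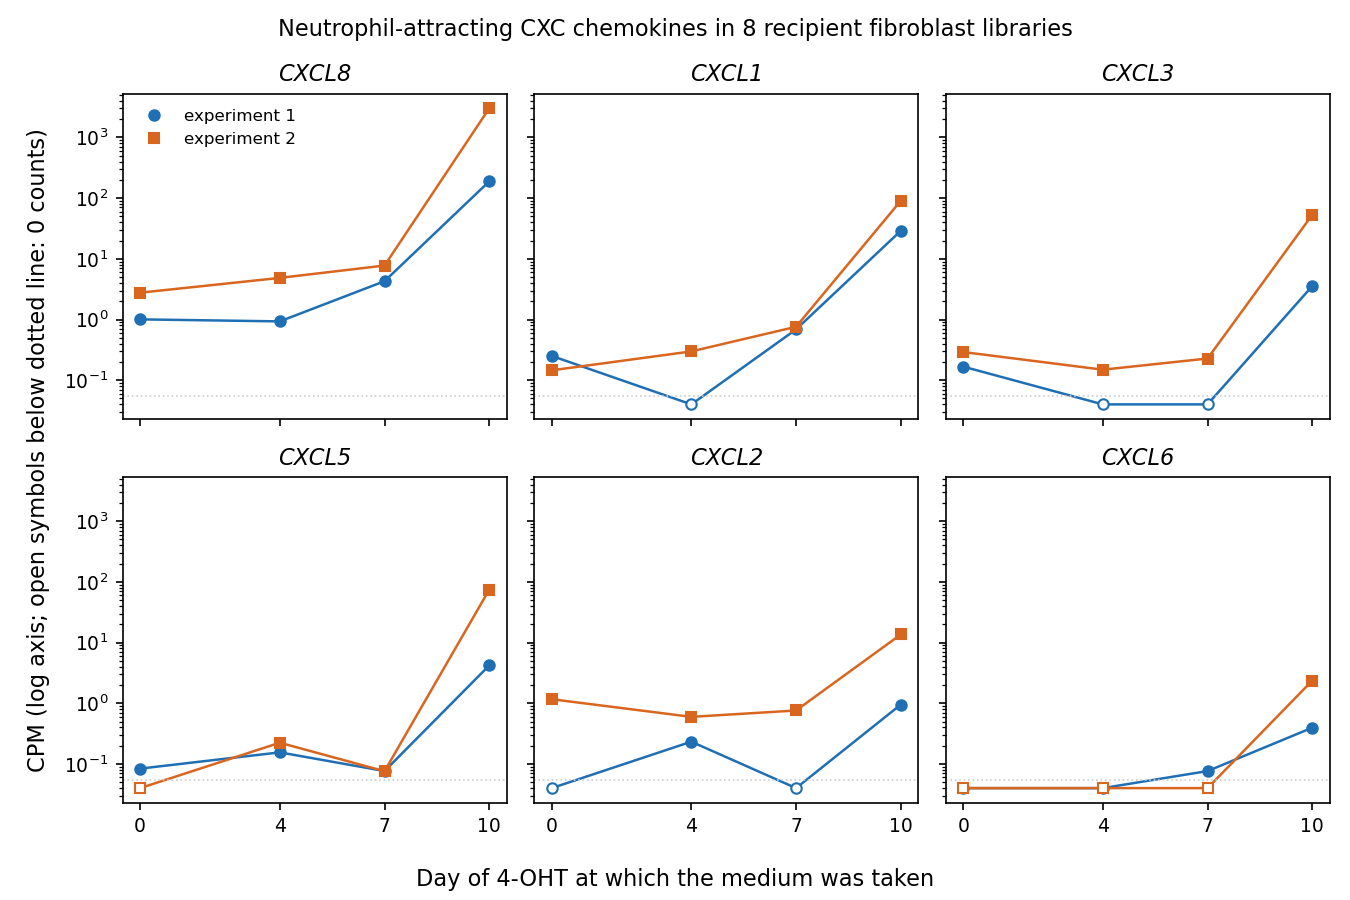
Levels of the 6 chemokines (CPM, log axis) against the day of 4-OHT at which the medium was taken (days). Each line joins the 4 libraries of 1 experiment, open symbols mark 0 counts, and panels are to be compared by shape, since CPM is not scaled to gene length. CXCL8 is at 0.931 to 7.75 CPM up to D7 and at 189 and 3012 CPM at D10, and the experiment 2 point is the higher at D10 in all panels.

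D10 was compared with D0 to ask whether medium of full senescence changed these genes in the recipient cells. Of the 5 members tested, CXCL1 passed the threshold, at an adjusted p of 0.0181 in edgeR's quasi-likelihood test with the groups alone. Over all 13798 genes tested, 0.29% were called, 0.196% as higher. The log2 fold change of CXCL1 was 8.18 (SE 0.87, n = 2 per group, edgeR quasi-likelihood test), and the call was lost (0 genes called) without D0 replicate 1 or without D0 replicate 2. Without D10 replicate 1, edgeR called CXCL1, CXCL3, CXCL5 and CXCL8 (155 genes in all). In the fit of all 8 libraries, the log2 fold change was 9.70 (SE 1.61, edgeR adjusted p = 0.0656) for CXCL8 and 9.65 (SE 1.74, edgeR adjusted p = 0.0779) for CXCL5. CXCL3 gave 6.87 (SE 1.45, edgeR adjusted p = 0.109) and CXCL2 gave 3.57 (SE 1.55, edgeR adjusted p = 0.631). CXCL8 and CXCL5 had the larger estimates and also a larger spread between experiments, whereas CXCL1 had the smallest SE.

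The replicates pair the libraries by experiment, and with the experiment as a block all 5 tested members were called higher, in a fit that called 4.99% of genes, 2.54% as higher. The blocked log2 fold changes (edgeR, with SE) were 8.15 (0.50) for CXCL1, 9.21 (0.81) for CXCL8, 9.59 (0.86) for CXCL5, 6.82 (0.51) for CXCL3 and 3.62 (0.61) for CXCL2. Their edgeR adjusted p-values were 0.000195, 0.000746, 0.000806, 0.000454 and 0.0123 in the same order. DESeq2, without a block, called CXCL1, CXCL3, CXCL5 and CXCL8, where it called 2.83% of genes, 1.58% as higher, and gave 3.64 with an adjusted p of 1 for CXCL2. The median of the 5 log2 fold changes was 8.18, against 0.0037 over all genes tested, but the filter favours members that are high at D10. Without the filter, where 371 of 27696 genes were called at D10, CXCL6 was also called (edgeR adjusted p = 0.0114), on 5 and 30 counts at D10. Its fitted fold depends on the prior count, since both D0 libraries were at 0.

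**Figure D2:**
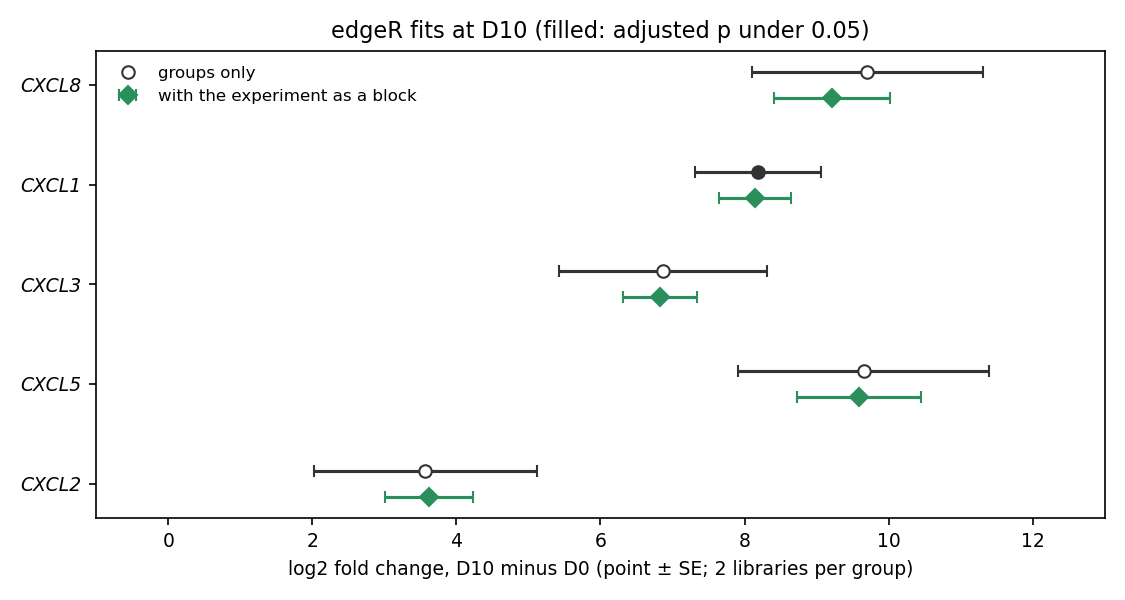
Estimated log2 fold change at D10 against D0 (x axis, log2 units) for the 5 tested members, with bars of 1 SE, from the fit of groups alone (circles) and with the experiment as a block (diamonds). Filled symbols passed an adjusted p of 0.05: CXCL1 alone among the circles, and all 5 diamonds, with CXCL2 lowest at 3.57 and 3.62.

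Without a fit, the D10 library was set against the D0 library of the same experiment, with intervals that cover counting error only. CXCL8 was 188-fold higher (95% interval 107 to 364) in experiment 1 and 1089-fold higher (793 to 1539) in experiment 2. CXCL1 was 115-fold higher (39.0 to 560) and 620-fold higher (171 to 5129). For CXCL8 the intervals of the experiments did not overlap, and for CXCL1, with 3 and 2 counts at D0, they did. CXCL3 was 21.3-fold higher (5.55 to 181) and 182-fold higher (70.9 to 671). CXCL5 was 50.1-fold higher (8.61 to 2015) in experiment 1 and at least 340-fold higher in experiment 2, where D0 held 0 counts and the bound was set at 3 counts per library. CXCL2 was at least 3.78-fold higher in experiment 1 and 11.6-fold higher (6.97 to 20.8) in experiment 2, the smallest ratio there. CXCL6 was at least 1.57-fold and at least 10.8-fold higher. Both D10 libraries exceeded both D0 libraries for every member except CXCL2, a pattern that 15% of all genes tested showed.

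**Figure D3:**
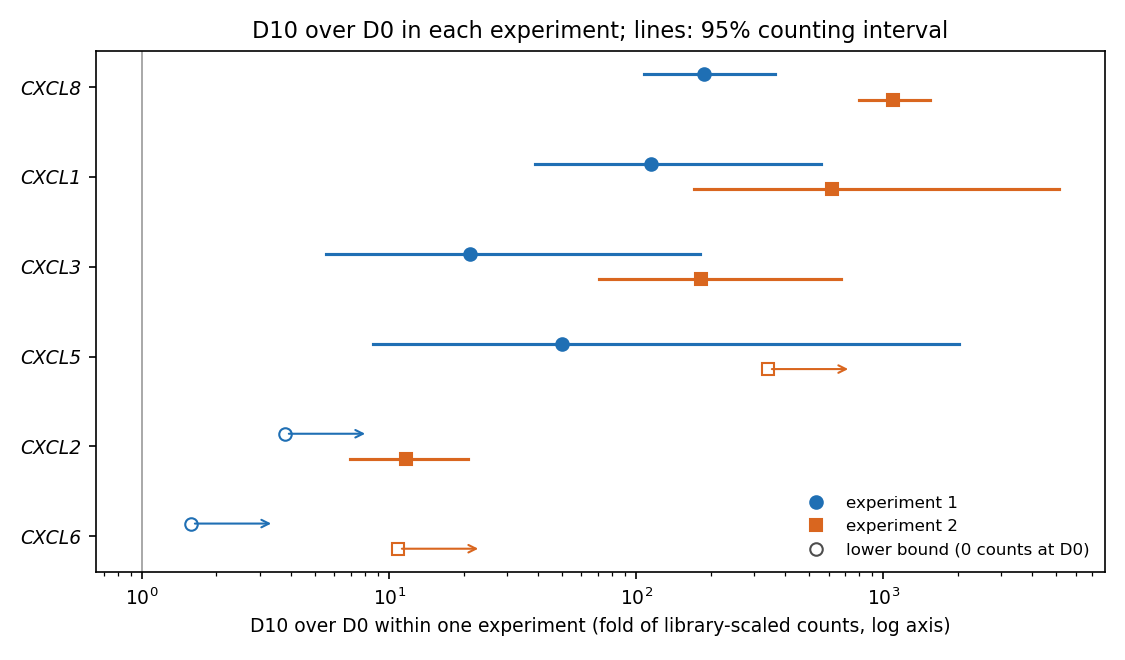
Fold of D10 over D0 within each experiment (log axis) for the 6 members, with the 95% counting interval as a line. Open symbols with arrows are lower bounds where D0 had 0 counts. CXCL8 at 188 and 1089 and CXCL1 at 115 and 620 lie farthest right among the genes with a ratio in both experiments, and the symbols of CXCL2 and CXCL6, mostly bounds, lie nearest to 1.

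The D10 levels differed between the experiments. The D10 library of experiment 2 exceeded that of experiment 1 by 15.96-fold for CXCL8 (95% counting interval 15.3 to 16.6), 17.7-fold for CXCL5 (13.4 to 23.8), 14.9-fold for CXCL3 (11.0 to 20.6) and 14.3-fold for CXCL2 (7.97 to 28.2). CXCL1 stood apart with 3.13-fold (2.78 to 3.53), and CXCL6 had 5.98-fold (2.30 to 19.7). Part of the gap in CXCL8 was present on the other days, at 2.75-fold (1.41 to 5.78) at D0, 5.20-fold (2.79 to 10.6) at D4 and 1.81-fold (1.29 to 2.56) at D7. A term for the experiment at D10, over and above the difference shared by the other days, was tested with edgeR's quasi-likelihood test on 2 residual degrees of freedom. Each experiment had a single D10 library, so the spread in this test comes from the other days and the p-values are weak evidence. Of the 5 tested members CXCL8 was called, at a log2 value of 2.62 (SE 0.37, edgeR adjusted p = 0.00204), where 3.09% of all genes were called. DESeq2 gave it 2.49 and an adjusted p of 0.0654. For CXCL5 the term was 4.21 (edgeR adjusted p = 0.0624), and it was called by DESeq2 (4.24, adjusted p = 0.0133) and by edgeR without the filter (adjusted p = 0.0142) or without D7 replicate 1 (0.0337) or D7 replicate 2 (0.0329). The member called thus depended on the tool. The term was 2.01 for CXCL3 (edgeR adjusted p = 0.515), 1.27 for CXCL1 (0.363) and 0.58 for CXCL2 (0.899), none past the threshold.

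Other features of these libraries moved with the experiment or with this library. The 8 fibroblast markers, collagens and VIM among them, summed to 9633 CPM in the D10 library of experiment 2 and to between 29649 and 46255 CPM in the other 7, while every marker was detected. FOS, an immediate-early gene, had 7 to 31 counts in the libraries of experiment 1 and 2581 to 4465 in those of experiment 2, on all days. The part of either in the result was not tested. The 5 neutrophil markers in the table, of 7 listed, summed to between 0 and 0.458 CPM and were at 0 in the D10 library of experiment 2. PTPRC, found on all leukocytes, was at most 0.0792 CPM. The summed markers of monocytes and macrophages were at 1.53 to 4.11 CPM, those of endothelium at 0.969 to 3.74 CPM and those of epithelium at 22.9 to 63.2 CPM. The epithelial sum was nearly all KRT18, at 22.6 to 62.8 CPM, while EPCAM was at most 0.535 CPM and CDH1 at most 0.229 CPM. Library totals ranged from 11708193 to 13395912 counts.

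Before D10, CXCL8 and CXCL1 were the members whose D7 libraries did not overlap with D0. At D7 CXCL8 was 4.25-fold higher (2.25 to 8.72) in experiment 1 and 2.80-fold higher (1.91 to 4.18) in experiment 2, by counting error alone. CXCL1 was 2.73-fold (0.682 to 15.7) and 5.22-fold (1.11 to 49.0) its D0 level. No member was called at D7, where the edgeR test called 0% of genes with the groups alone (599 at an unadjusted p under 0.05) and 1.25% with the block. CXCL8 had a blocked log2 fold change of 1.98 (edgeR adjusted p = 0.407) and CXCL1 of 1.90 (edgeR adjusted p = 0.456). The other members gave no direction at D7, with log2 values of -0.65 for CXCL2, -0.97 for CXCL3 and 0.82 for CXCL5 on counts of 0 to 16. Such D7 libraries, both above both D0 libraries, were seen for 13.7% of all genes.

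At D4 no member was called, and the same test called 0% of genes with the groups alone (409 at an unadjusted p under 0.05) and 0.275% with the block. CXCL8 stood at 0.926-fold its D0 level (0.381 to 2.25) in experiment 1 and at 1.75-fold (1.16 to 2.69) in experiment 2. CXCL2 was 0.512-fold (0.190 to 1.27) in experiment 2, the only experiment with counts enough for a ratio. The remaining members had at most 4 counts in a D4 library, so a change there was not detectable at this depth.

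Most of the rise fell between D7 and D10. The D7 level of CXCL8 was 2.27% of its D10 level in experiment 1 and 0.257% in experiment 2, and that of CXCL1 was 2.38% and 0.841%. CXCL8 rose 44.1-fold (33.8 to 58.6) and 389-fold (320 to 477) between these days, and CXCL5, from 1 count in each D7 library, rose 54.9-fold (9.44 to 2210) and 978-fold (175 to 38686). With the groups alone the edgeR test called 0% of genes and no member between D7 and D10 (489 genes at an unadjusted p under 0.05). With the block it called all 5 tested members and 0.319% of genes, 0.304% as higher. The blocked edgeR adjusted p-values were 0.00065 for CXCL1, 0.000949 for CXCL3, 0.00351 for CXCL5, 0.00642 for CXCL8 and 0.0489 for CXCL2. DESeq2 called 4 members here and 0.478% of genes. Between D4 and D7 no member was called, with 0% of genes called by edgeR in either fit (58 at an unadjusted p under 0.05 with the groups alone) and 0.00725% by DESeq2.

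Levels can be set against each other only per length. At D10 the CPM per kilobase of exon were 83.0 and 1324 for CXCL8, 22.3 and 69.7 for CXCL1, 1.65 and 29.3 for CXCL5, 1.61 and 23.9 for CXCL3, 0.633 and 9.04 for CXCL2, and 0.181 and 1.08 for CXCL6. This order held within each library. Between the experiments the levels varied so much that only the ranges of CXCL8 and CXCL1 did not overlap, and those of the other neighbours in the order did. Within a library the gap between CXCL5 and CXCL3 was the smallest. CXCL5 and CXCL3 changed places when the longest transcript was used as the length. Within each library CXCL8 exceeded CXCL1, by less in experiment 1 than in experiment 2. The order did not follow the position along the chromosome, since CXCL6, the lowest, lies between CXCL8 and CXCL1. Reads of the paralogs are partly ambiguous. Of their 50-base words, 4.81% of CXCL1, 12.5% of CXCL2 and 6.01% of CXCL3 occur in another of these 3 genes, so their counts are uncertain to that extent. CXCL6 shared 2.16% of its words with PPBPP1 and CXCL5 1.12% with GLYR1, while CXCL8 shared none.

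**Figure D4:**
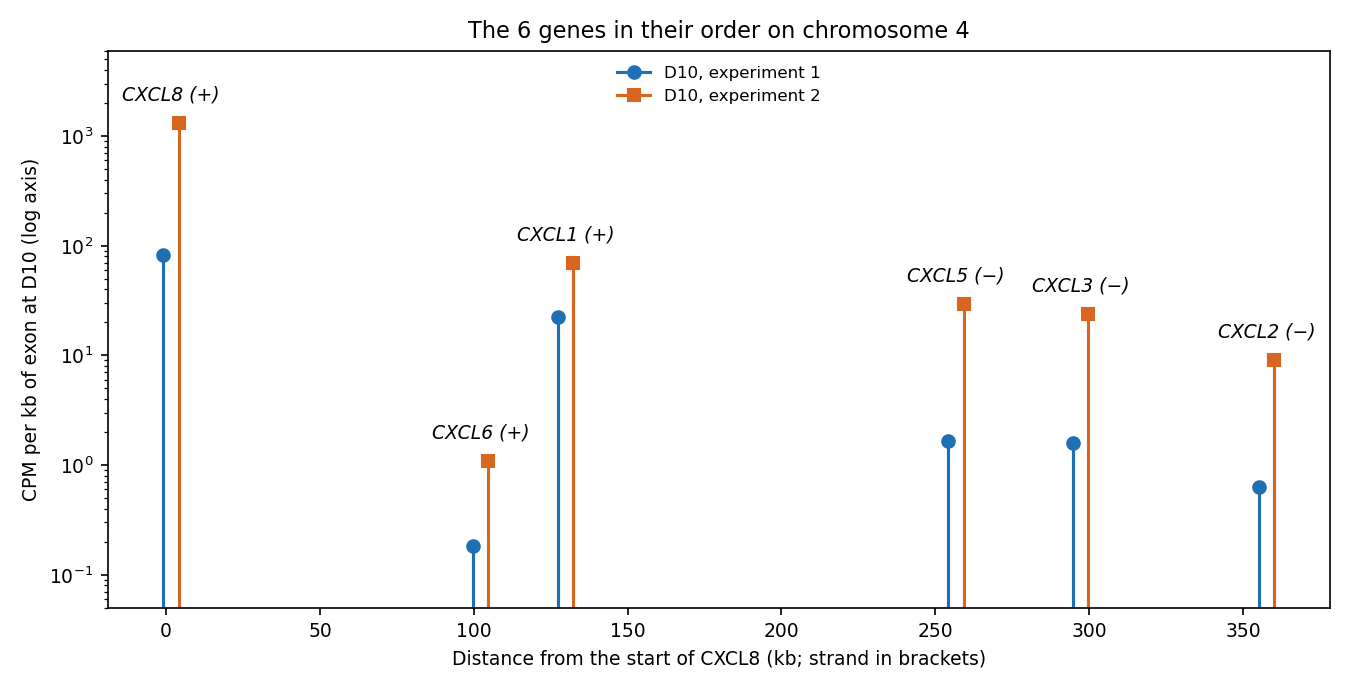
CPM per kilobase of exon at D10 (log axis) against distance from the start of CXCL8 (kb), with 1 stem per experiment and the strand in brackets. CXCL8 (83.0 and 1324) and CXCL1 (22.3 and 69.7) are highest, and CXCL6, between them, is lowest at 0.181 and 1.08.

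The table held 4 other genes inside this span. PF4V1, a variant of platelet factor 4, had 2 and 6 counts at D10 and 1 count in all earlier libraries together. PF4, platelet factor 4 itself, had 1 count, in the D10 library of experiment 2. HNRNPA1P55 and AC093677.1 had at most 1 count in any library, and none of the 4 was tested. Within 1 Mb of the span there were 19 genes besides the members, of which 7 were tested. At D10 edgeR called 0 of them with the groups alone (0.29% of all genes) and 2 with the block (4.99% of all genes). These were AREG and EREG, which encode the EGF-receptor ligands amphiregulin and epiregulin. AREG had 36, 153, 192 and 393 counts in experiment 1 and 27, 216, 639 and 1106 counts in experiment 2. All its later libraries lay above D0, unlike those of the chemokines, and its blocked log2 fold change was already 3.49 at D7 (edgeR adjusted p = 0.0177; 0.307 without the block) and 4.42 at D10 (0.00227; 0.0597 without). EREG was counted 2 and 20 times at D0 and 22 and 133 times at D10, with a blocked edgeR adjusted p of 0.00867 (0.587 without).

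Of the receptors, CXCR1 had 2 counts in 1 D4 library and none elsewhere, and the scavenger ACKR2 had 0 to 6 counts per library. Neither was tested, and CXCR2 and ACKR1 were not analysed here.

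Interleukin-1 is a main inducer of these chemokines in fibroblasts. The RNA of its ligands rose in the recipient cells on the same day, and the part of either ligand in the chemokine rise was not tested. IL1B had 0, 1, 1 and 148 counts in experiment 1 and 1, 2, 4 and 723 counts in experiment 2. Its log2 fold change of 9.47 at D10 was called (edgeR adjusted p = 0.0379). IL1A was counted 0 times in both D0 and both D7 libraries and 11 and 66 times at D10, and was called with the block (edgeR adjusted p = 0.00866; 0.146 without). Before D10 neither ligand had more than 4 counts in a library. Both therefore entered the set of tested genes through their D10 libraries, and the filter favours a rise there. The receptor IL1R1 moved less, with a blocked log2 fold change of 1.08 (edgeR adjusted p = 0.0429; 0.49 without). Of the 10 inducing ligands and receptors listed, 9 were in the table and 6 were tested, with 1 called higher at D10 by groups alone, 3 with the block, 0 lower, and a median of 0.47. Over all genes the shares called higher were 0.196% by groups alone and 2.54% with the block.

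Among NF-κB subunits, their coactivator and their inhibitors, all 12 were tested, 1 was called higher at D10 with the groups alone (0.196% of all genes) and 5 with the block (2.54% of all genes), 0 were lower, and the median was 0.77. The genes called with the block included subunits of NF-κB as well as genes that restrain it. The 3 with the largest D10 changes are described here. NFKBIA, which encodes the inhibitor IκBα, had 380, 422, 665 and 1360 counts in experiment 1 and 399, 364, 698 and 1305 counts in experiment 2. The experiments lay close together on every day, and the log2 fold change was 1.79 at D10 (edgeR adjusted p = 0.0225) and 0.77 at D7 (edgeR adjusted p = 0.039 with the block, 0.49 without). NFKBIZ, the nuclear coactivator IκBζ, went from 12.6 and 52.8 CPM at D0 to 79.1 and 344 CPM at D10 (blocked log2 fold change 2.67, edgeR adjusted p = 0.000806; 0.498 without the block). TNFAIP3, the deubiquitinase A20, went from 4.27 and 10.3 CPM to 22.8 and 164 CPM (blocked log2 fold change 3.40, edgeR adjusted p = 0.00827; 0.151 without).

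The 6 C/EBP and AP-1 factors were all tested and had a median of 0.39 at D10, with 0 called by groups alone and 1 higher with the block (2.54% of all genes). That gene was CEBPB, a C/EBP factor that acts with NF-κB on the CXCL8 promoter (blocked log2 fold change 1.39, edgeR adjusted p = 0.0202; 0.134 without). At D7 the block called FOSL1 higher (0.89, edgeR adjusted p = 0.048) and CEBPD lower (-1.36, edgeR adjusted p = 0.0472). Of 7 mRNA decay and stability factors, which act on AU-rich transcripts such as those of CXCL8, ZC3H12A was called higher at D10 in each fit and the median was -0.08. ZC3H12A, the endonuclease Regnase-1, was counted 80 and 120 times at D0 and 456 and 792 times at D10 (log2 fold change 2.67, edgeR adjusted p = 0.0434). Against these medians stand 0.0037 over all genes tested and the 0.29% called by groups alone and 4.99% with the block.

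**Figure D5:**
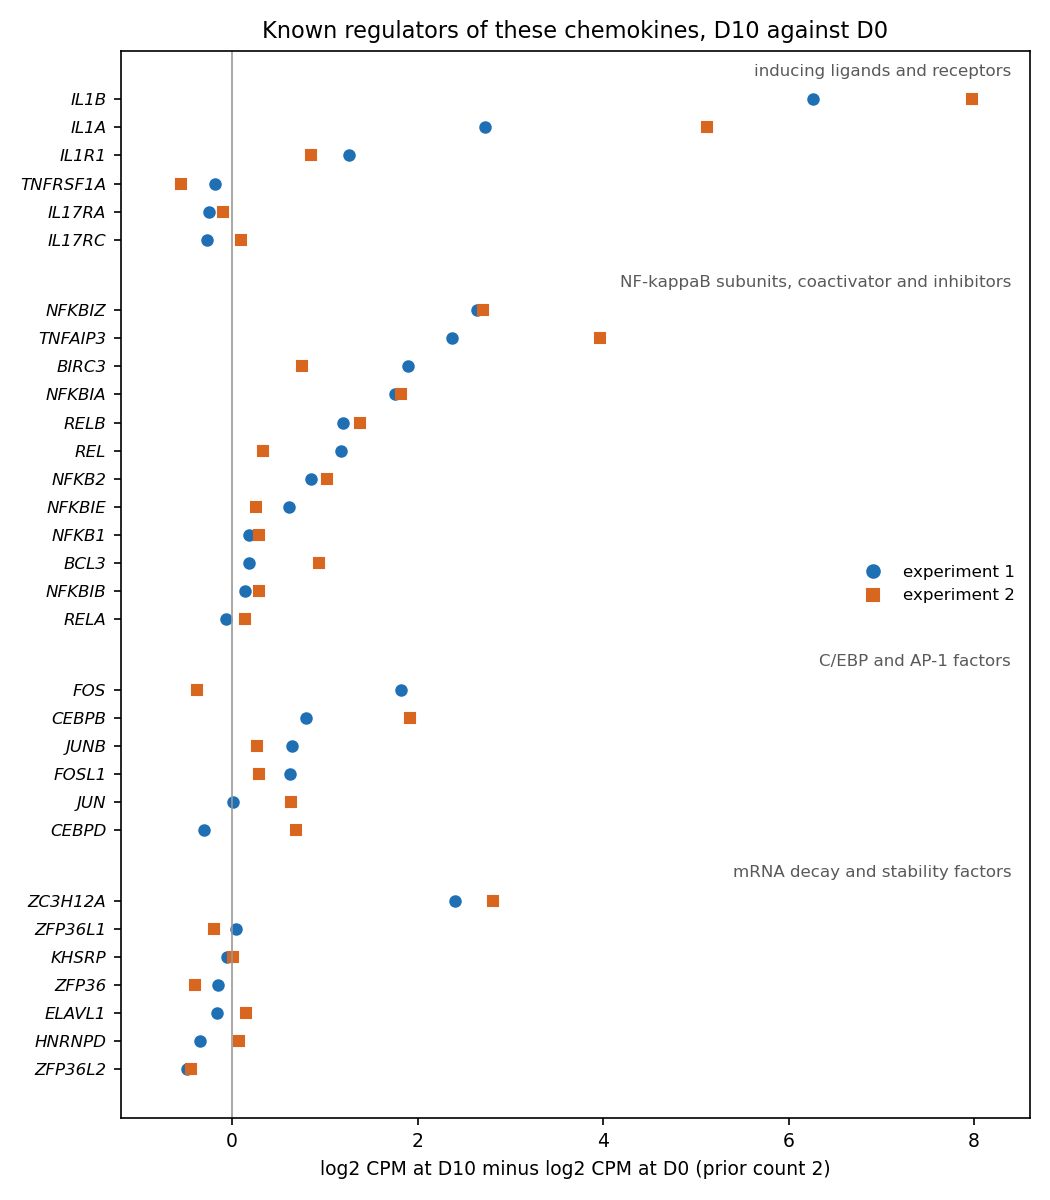
Difference in log2 CPM between D10 and D0 (prior count 2) for tested genes of 4 lists of regulators, with 1 symbol per experiment. IL1B lies farthest right at 6.26 and 7.97, NFKBIZ (2.64 and 2.70) and NFKBIA (1.75 and 1.82) are alike in both experiments, and FOS moves in opposite directions (1.82 and -0.38).

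Other cytokines that act on neutrophils were measured beside the chemokines. Of 5 listed, 3 were tested, with a median of 2.19 at D10, 0 called by groups alone (0.29% of all genes) and 2 called higher with the block (2.54% of all genes). IL6 had 60, 41, 61 and 494 counts in experiment 1 and 140, 127, 108 and 6555 counts in experiment 2 (blocked log2 fold change 4.63, edgeR adjusted p = 0.0058; 0.131 without). LIF, an IL-6 family cytokine, went from 86.6 and 242 CPM at D0 to 423 and 1074 CPM at D10 (blocked log2 fold change 2.21, edgeR adjusted p = 0.000656; 0.307 without). The interferon-induced and homeostatic CXC chemokines had 3 tested genes of 7 and a median of 0.29. CXCL10, a T-cell chemokine, was the gene called at D10 among them. It was called higher with the groups alone (0.196% of all genes) and with the block (2.54% of all genes). At D7 it was called with the block (log2 fold change 1.74, edgeR adjusted p = 0.0469, against 0.512 without), where 1.25% of all genes were called. At D10 its level was higher in experiment 1 than in experiment 2. It had 21, 18, 100 and 569 counts in experiment 1 and 19, 21, 44 and 348 counts in experiment 2 (log2 fold change 4.52, edgeR adjusted p = 0.0181).

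Over the 8 libraries the log2 CPM of the tested members correlated with each other at r between 0.72 (CXCL1 with CXCL2) and 0.98 (CXCL1 with CXCL8). The libraries share days, experiments and scaling, so this is a description. Outside the family, the 5 genes most like the mean of the tested members were CCL20 (r = 0.99), a chemokine of CCR6-bearing cells, NAMPT (0.99), an enzyme of NAD synthesis, IL6 (0.99), WTAP (0.99), a component of the m6A methyltransferase complex, and RGS18 (0.98), a regulator of G-protein signalling. CCL20 was counted 1 and 2 times at D0 and 21 and 107 times at D10. NAMPT was counted 153 and 306 times at D0 and 900 and 6663 times at D10. RGS18 was counted 4 and 6 times at D0 and 34 and 309 times at D10. WTAP, at 46.3 and 48.8 CPM on D0 and 64.7 and 92.9 CPM on D10, followed the same shape with a log2 fold change of 0.73. All had their highest level in the D10 library of experiment 2.

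Besides the members, 52 tested genes had GGAATTTCC within the 250 bases before their RefSeq start. At D10, 2 of them were called higher by groups alone (0.196% of all genes), and with the block 7 were called higher and 1 lower (2.54% and 2.45% of all genes). Their median log2 fold change was 0.18. The 7 were NFKBIZ, NFKBIA and CXCL10, given above, and COL7A1, ICAM1, DUSP6 and TFB1M, which are named here after their values were seen. ICAM1, to which neutrophils adhere, had a blocked log2 fold change of 1.94 (edgeR adjusted p = 0.0106). Most of the 52 genes were not called.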

How the data were processed

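Poly(A) RNA of IMR90 recipient cells was sequenced from 8 stranded libraries in 4 groups. The authors deposited raw read counts per gene and RPM columns, which equalled the counts scaled to the library total (within 0.005) for 100% of values and were not used further. The labels' processing notes name STAR 2.5, DESeq2 and GRCh38. The strand setting, the handling of multi-mapped reads and the gene annotation are not given in the sources used here. A column headed DO was taken as D0 replicate 1.

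Genes were filtered with filterByExpr (13798 kept), scaled by TMM and tested with edgeR 4.0.16 (glmQLFit, glmQLFTest, R 4.3.3) by group on all 8 libraries, with Benjamini-Hochberg adjustment over all genes and a threshold of 0.05. CPM use TMM-scaled library sizes. The SE given with edgeR values is the size of the log2 fold change divided by the square root of the F statistic of its quasi-likelihood test. It is thus derived from the test and was not estimated separately. The replicate numbers mark 2 independent experiments, and deviations of same-numbered libraries from group means correlated across genes (lowest r 0.418, highest 0.722, over 6 group pairs), so they pair the libraries. The alternatives were this block, DESeq2 1.42.0 and its size factors, other filters and thresholds, the compared groups only, and leaving out each library. The fold of 2 libraries has an exact binomial 95% interval of counts, and 0 counts were set to 3. Positions are those of GENCODE 29, in which 27588 identifiers (99.6%) were found.

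The members and the gene lists were chosen with earlier results of these data known. Named genes are the members, list genes called in a comparison with D0 (at most 3 a list, by the size of the D10 change), neighbours that were called or lie inside the span, and the 5 genes of most similar pattern. Nothing in the labels says whether cultures differed within an experiment, and p-values measure the spread between these libraries. The methods were tested on simulated data with changes planted only in genes of higher counts, so members with few counts before D10 were not covered.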

Additional observations from a re-analysis of the deposited data

Results flagged for a closer look

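The D10 rise of CXCL8 passed a test of the difference between the experiments, in which each experiment had a single D10 library and the spread came from the other days. The term for experiment 2 against 1 at D10 was 2.62 on the log2 scale (edgeR quasi-likelihood test, adjusted p = 0.00204), with both experiments moving up, 188-fold in experiment 1 and 1089-fold in experiment 2. With DESeq2 it did not pass the threshold (adjusted p = 0.0654), whereas CXCL5 did (4.24, adjusted p = 0.0133; 0.0624 in edgeR). For CXCL8, edgeR's adjusted p was at most 0.0196 in the fits that left out a D0, D4 or D7 library.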

How the results depend on the processing

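The replicate block, pairing libraries by experiment, moved the genes called to 38 at D4, 172 at D7, 688 at D10 and 44 between D7 and D10, and the members called to 5 at D10 and 5 between D7 and D10, and it changed no member's call at D4, at D7 or between them. DESeq2 called 47, 117, 390, 1 and 66 genes (D4, D7 and D10 against D0, D7 against D4, D10 against D7), and 4 members in each of the comparisons of D10. Without the filter edgeR called 21, 93, 371, 1 and 77 genes, 6 members at D10 and 4 between D7 and D10, and for the experiment term 861 genes and 2 members. A minimum of 10 counts in every library left 20 genes and 0 members called at D10, since it removed the members other than CXCL8. Fitting only the compared groups gave 0 genes and 0 members at D10. An adjusted p under 0.01 left 2 genes and 0 members there, and 146 genes for the experiment term.

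Leaving out 1 library at a time, the genes called ranged from 0 to 155 at D10, 0 to 47 between D7 and D10 and 44 to 1149 for the experiment term. The members called ranged from 0 to 4, 0 to 4 and 1 to 2 there. At D10 against D0, 0 genes were called without D0 replicate 1 or D0 replicate 2, 11 to 15 without D10 replicate 2 or any D4 or D7 library (with CXCL1 among them each time), and 155 without D10 replicate 1. Fewer libraries leave fewer degrees of freedom, and the lone library left in a group is assumed to vary like the other groups. The D10 log2 fold change stayed positive, from 7.14 to 8.80 for CXCL1, 0.65 to 9.54 for CXCL2, 3.88 to 7.79 for CXCL3, 6.43 to 12.01 for CXCL5 and 6.62 to 10.63 for CXCL8, each lowest without D10 replicate 2. Directions that turned were those of low counts: at D4 CXCL1 (-4.40 to 0.58), CXCL2 (-1.46 to 5.45) and CXCL8 (-1.02 to 1.52), at D7 CXCL2 (-5.98 to 5.32) and CXCL5 (-0.12 to 3.16), between D4 and D7 CXCL2 (-5.46 to 0.85) and CXCL3 (-3.15 to 3.67), and in the experiment term CXCL2 (-2.82 to 1.40, and -0.39 with DESeq2) and CXCL3 (-0.46 to 2.58). None of these passed an adjusted p of 0.05 in any such fit. The experiment term could not be fitted without either D10 library.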
